A study of Homo sapiens with 4 samples.

Results

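The regions described here are 1405 PAS clusters (PACs) that were listed in KYSE30 cells and in neither library of TE-1 cells, out of 17627 PACs in the whole series. A PAC is a stretch of the genome where the 3′ ends of polyadenylated transcripts fall close together. The members had TPM above 3 in both KYSE30 libraries and no entry in either TE-1 library, so they were chosen by their TPM values, which are given as a description without a test. TPM here is the tag number of a PAC relative to all tags of its library (tags per M), with no correction for length. They were 1405 of the 13071 PACs with TPM above 3 in both KYSE30 libraries. By the same rule with the lines exchanged, 1263 of 12791 PACs were listed only in TE-1.

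Both lines, KYSE30 and TE-1, come from human esophageal squamous cell carcinoma (ESCC) and are long established. Directional PAS-seq reads mark the 3′ ends of mRNAs, and gave 1 library of each line treated with l-lactate (20 mM, 24 h) and 1 control library of each line given PBS. All values compare 1 library with another, no spread between replicates exists, and the intervals below are 95% intervals that cover counting error only. The cell line entries of the control samples read KYSE32 and TE-3, whereas their titles read K30 and TE1 and the study names KYSE30 and TE-1 for this experiment, so the titles were followed. In the files, 96.0% of the PACs of the KYSE30 control library were also listed in the KYSE30 l-lactate library and 85.2% in the TE-1 control library. For the TE-1 control library, these shares were 96.5% with the other TE-1 library and 86.5% with the KYSE30 control library.

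During mRNA maturation the 3′ end is cut and polyadenylated a short distance downstream of a poly(A) signal, most often AAUAAA, and UGUA elements upstream of the site are bound by the cleavage factor that contains NUDT21. Many genes hold several such sites, and the choice between them is alternative polyadenylation (APA). A site used in only 1 line can therefore belong to a gene whose transcripts are listed in that line alone, or to a gene transcribed in both lines that ends at different places. Squamous epithelium, from which ESCC arises, is marked by keratins, cornified envelope proteins and desmosomal cadherins, and lines differ in how much of this program they keep.

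In some genes with a member, TE-1 listed other PACs. Whether such genes end at different places in the lines was not tested. At a few TPM a PAC can be missing from a library, and an intronic PAC cannot be tied to the host transcript. The last 30 nt of GRCh38 sequence before cleavage are shown for 6 such genes, at the member and at the site with the highest TE-1 level. Sequences run 5′ to 3′ on the sense strand and end at the dominant site. Capitals mark the poly(A) signal, which is AATAAA, else the variant ATTAAA, else 1 of 10 rarer variants of the hexamer, of which AATACA was the only 1 met here.
CEP162 KYSE30 only (chr6:84124916-84124945, minus strand, 3′ UTR): caacatttcaaAATAAAttgcctttaacca
CEP162 strongest in TE-1 (chr6:84124256-84124285, minus strand, 3′ UTR): gtaaatattgctgcAATAAAcatacatgta
ERI2 KYSE30 only (chr16:20780193-20780222, minus strand, 3′ UTR): ttctgtaAATAAAatgttattgcccattca
ERI2 strongest in TE-1 (chr16:20796343-20796372, minus strand, 3′ UTR): tacctaaAATAAAtatttgaaacaccagga
UROS KYSE30 only (chr10:125791527-125791556, minus strand, 3′ UTR): ttcaggctATTAAAtaatgctaaacattca
UROS strongest in TE-1 (chr10:125788585-125788614, minus strand, 3′ UTR): agtcaAATAAAccacactgactacctgtgc
USP45 KYSE30 only (chr6:99432439-99432468, minus strand, 3′ UTR): atAATAAAtattcttatttatctcatgtta
USP45 strongest in TE-1 (chr6:99482261-99482290, minus strand, intron): ggaAATAAAcacataaaggatctgacttga
AP1S3 KYSE30 only (chr2:223704493-223704522, minus strand, intron): aaatattgtaAATAAAcataaatatattca
AP1S3 strongest in TE-1 (chr2:223755334-223755363, minus strand, 3′ UTR): ttccaaAATAAAatgttttaacatgtttta
PCBD2 KYSE30 only (chr5:134926866-134926895, plus strand, intron): tatttgatcaggagaatgtggttactagca
PCBD2 strongest in TE-1 (chr5:134960682-134960711, plus strand, 3′ UTR): tttcttccaaAATACAtgtaaaatcttgta
Of the 6 sites listed only in KYSE30, 4 carried AATAAA, UROS carried ATTAAA and PCBD2 carried none of the 12 hexamers in these 30 nt.

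Depth was 7425554 tags in the KYSE30 control and 7174991 in the KYSE30 l-lactate library, against 10393799 and 8468958 in TE-1, so both TE-1 libraries were deeper. The lowest TPM listed ranged from 1.06 to 1.12 across the libraries. Absence from a list is not absence of RNA. Among PACs listed in only 1 of the TE-1 libraries, the listed value had a median of 3.37, a 95th percentile of 5.31 and a maximum of 12.3 TPM, so a PAC with a level of a few TPM could be missing from a library. At the edge of the rule, 251 members had a lower KYSE30 value between 3 and 3.5 TPM, and 73 PACs between 2.5 and 3 TPM were listed in neither TE-1 library and fell just outside. A further 367 PACs with TPM above 3 in both KYSE30 libraries were left out because 1 TE-1 library listed them, at 1.06 to 8.08 TPM. KRT19, a simple epithelial keratin, and CDH1, which encodes E-cadherin, had a TE-1 entry in the l-lactate library alone. Summed over its 2 PACs, KRT19 had 1699 and 1574 TPM in the KYSE30 control and l-lactate libraries. Its level in the TE-1 l-lactate library was 2.95 TPM. The PAC inside CDH1 was left out by the rule, with 204 and 228 TPM in KYSE30 and 1.30 TPM in the TE-1 l-lactate library. A further CDH1 PAC, 1454 nt past the annotated end, was a member at 5.66 and 7.11 TPM.

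As a check of the lines against epithelial markers, EPCAM had 563 and 635 TPM in KYSE30 and 30.7 and 36.4 TPM in TE-1. TP63, the lineage factor of squamous epithelium, was itself in the set, with 1 PAC 4 nt past its annotated end at 24.2 and 32.6 TPM in KYSE30. KRT6A was listed only in KYSE30, and KRT5, KRT14 and DSG3 had no PAC in any of the 4 libraries. Of the markers of other cell types, none of the immune markers PTPRC, CD3E and LYZ was listed in any library. Of 5 fibroblast markers, COL1A1 and DCN were listed, in TE-1 only, at 3.66 to 7.12 TPM. Of 3 endothelial markers, CDH5 was a member at 16.2 and 11.2 TPM, while PECAM1 and VWF had no PAC. VIM, a mesenchymal marker, had 5.66 and 6.69 TPM in KYSE30 and 991 and 982 TPM in TE-1, at a PAC 1 nt past its annotated end. Other mesenchymal markers were mixed. FN1 had 128 and 74.1 TPM in KYSE30 and 2.60 TPM in the TE-1 control alone, and SPARC was a member. CDH2 had 2.15 and 2.09 TPM in KYSE30 and 14.2 and 14.996 TPM in TE-1, and ZEB1 was listed in TE-1 only, at 19.6 and 25.03 TPM.

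Most members lay in genes that had no PAC at all in TE-1. By the position of the dominant site on GENCODE 44, 850 members (60.5%, interval 57.9 to 63.0%) fell in 755 such genes. A further 344 (24.5%) fell in 323 genes with other PACs in TE-1, and 211 (15.02%) fell in no annotated gene of the same strand. The 755 genes were 7.98% of the 9457 genes with a PAC above 3 TPM in both KYSE30 libraries. With the lines exchanged, 625 of 9242 genes (6.76%) had no PAC in KYSE30. For 10 of the 755 genes (among them GIT2, DDX19A, PTPN2, RASA2, LINC01963, LIPH, TOM1L2 and CLDN1) a TE-1 PAC lay within 5 kb past the annotated end, which leaves 745. In 9 of the 10 it lay at most 24 nt past the end. The median distance from a member to the nearest same-strand TE-1 PAC was 79517 nt.

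A smaller share of members than of other KYSE30 PACs lay in a 3′ UTR. It was 61.9% (59.3 to 64.4%) of members and 87.2% (86.5 to 87.8%) of the 11666 other PACs above 3 TPM. Introns held 9.61% of members against 2.88%, noncoding exons 13.1% against 4.67%, and stretches outside annotated genes of the same strand 15.02% against 4.98%. The PACs listed only in TE-1 had similar shares, with 61.2% in a 3′ UTR. Since members were less abundant than other PACs (median 5.93 against 20.1 TPM in the control), the shares were also read within bands of TPM. Between 3 and 5 TPM, 54.2% of 690 members and 72.3% of 1532 other PACs were in a 3′ UTR, and above 30 TPM the shares were 79.8% of 99 and 93.6% of 4380, with intervals that did not overlap in either band.

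Members were also narrower. In the KYSE30 control, all tags fell on a single position in 74.6% of members between 3 and 5 TPM, against 36.9% of other PACs. Above 30 TPM these shares were 8.08% and 2.05%. The study joined neighbouring PACs that were abundant in all samples, a step open to other PACs but not to PACs missing from TE-1. Its part in the widths was not tested. The shares with a poly(A) signal had overlapping intervals. AATAAA, written as DNA and sought on the sense strand in the 50 nt before the dominant site, was found in 67.5% (65.0 to 69.9%) of members and 68.6% (67.7 to 69.4%) of other PACs. AATAAA or ATTAAA was found in 83.3% and 85.1%, any of the 12 forms in 95.9% and 96.5%, and TGTA in the last 100 nt in 56.9% and 58.2%. The members in genes with other TE-1 PACs had AATAAA in 61.3% (56.1 to 66.3%). Genomic sequence with at least 7 A in the 10 nt past the site, where priming inside a transcript can occur, followed 2.99% of members and 1.25% of other PACs.

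Among the 755 genes with no PAC in TE-1, 596 were protein-coding (6.70% of 8900 such KYSE30 genes) and 147 were lncRNA genes (28.2% of 521). Their summed member TPM, taken as the lower of the KYSE30 libraries, was at most 10 in 499 genes, between 10 and 30 in 156, between 30 and 100 in 76 and above 100 in 24. Of the 499, 367 were protein-coding and 121 were lncRNA genes. The shares of both kinds of gene were not compared at equal levels. More than 1 member lay in 80 of the 755 genes. Whether fewer cells or less RNA per cell lies behind a level cannot be told apart in bulk libraries. KYSE30 control values are given first and l-lactate values second throughout.

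The highest level belonged to AGR2, a disulfide isomerase of the endoplasmic reticulum in secretory epithelia, with 1093 and 1088 TPM. Its main PAC, with the dominant site at chr7:16792641 on the minus strand (GRCh38), held 1046 TPM (interval 1023 to 1070) and 1056 TPM (1032 to 1080), and a second PAC further downstream in the 3′ UTR held 47.4 and 32.1 TPM. The neighbouring gene AGR3, a paralog, was a member at 10.4 and 9.62 TPM. UCA1, a lncRNA first described in bladder cancer, had 571 and 773 TPM at chr19:15835419 on the plus strand. LRATD2 had 366 and 408 TPM, CAPS had 278 and 296 TPM, and ADIRF had 281 and 211 TPM. SOX2, a lineage factor of foregut epithelium, had 168 TPM (159 to 178) and 220 TPM (209 to 231) at chr3:181714434. NLRP2, a NOD-like receptor, had 165 and 161 TPM. TNFSF18, a cytokine of the TNF family, had 110 and 126 TPM over 3 PACs. ADGRF1, an adhesion G protein-coupled receptor, had 120 and 110 TPM spread over 5 PACs, of which 3 were in the 3′ UTR. TMC4 had 145 and 141 TPM. None of these genes had a PAC in either TE-1 library.

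The list of squamous differentiation genes holds genes of the cornified envelope and desmosomes of stratified epithelium, and also others such as protease genes. Of its 16 genes measured in KYSE30, 8 had no TE-1 PAC, against 7.98% of all genes. With the lines exchanged, 3 of 9 (SPINK13, SPINK1 and SPINK6) had no PAC in KYSE30. SPRR3, a small proline-rich envelope precursor, had 242 and 283 TPM. KLK6 and KLK5, serine proteases of the epidermis and mucosa, had 264 and 199 TPM and 22.4 and 16.9 TPM. IVL, which encodes involucrin, had 61.9 and 53.0 TPM, SERPINB5 (maspin) had 61.3 and 66.1 TPM, and the desmosomal cadherin DSC3 had 41.1 and 33.3 TPM. SPRR1B had 41.7 and 59.2 TPM and SPRR1A had 16.8 and 17.7 TPM. PADI3, a protein-arginine deiminase of the epidermis, had 280 and 352 TPM over 2 PACs, and COL17A1, a hemidesmosomal collagen, had 140 and 136 TPM. The collagen and laminin genes as a list had no TE-1 PAC in 4 of 15, and 7 of 21 were listed only in TE-1.

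Keratin genes were without a TE-1 PAC in 4 of 11. KRT13, the keratin of suprabasal cells in the esophagus, had 728 TPM (709 to 748) and 684 TPM (665 to 704) at chr17:41500987. KRT15, a basal keratin, had 73.4 and 93.5 TPM, KRT4, the partner of KRT13, had 14.4 and 15.6 TPM, and KRT6A had 20.3 and 40.4 TPM. The list was not one-sided, since KRT17 was listed only in TE-1 at 245 and 187 TPM. KRT8 and KRT18 were listed in both lines.

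Epithelial state genes were without a TE-1 PAC in 6 of 17, or in 5 once CLDN1 is set aside, which had 5.77 and 6.85 TPM in TE-1 at a PAC 3 nt past its annotated end. With the lines exchanged, none of the 7 genes of this list measured in TE-1 was missing from KYSE30. RAB25, a small GTPase of epithelial membrane recycling, had 366 and 382 TPM, and ESRP1, a splicing regulator of epithelial isoforms, had 257 and 251 TPM. OVOL1 and OVOL2, transcription factors that keep the epithelial state, had 17.9 and 16.6 TPM and 11.99 and 12.1 TPM, and the tight junction gene CLDN3 had 12.9 and 13.2 TPM. Mesenchymal state genes were also present, in 3 of 8: TGFBI at 35.6 and 27.04 TPM, SPARC at 9.97 and 16.3 TPM, and MMP2. In the other direction, 2 of 7 (ZEB1 and PDGFRB) were listed only in TE-1.

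Cancer-testis antigen genes, normally expressed in the germ line, had no TE-1 PAC in 4 of 6. MAGEA4 had 711 TPM (692 to 730) and 720 TPM (701 to 740) at chrX:151925169, CTAG2 had 409 and 387 TPM, and MAGEB2 had 65.0 and 60.8 TPM. In turn, MAGEA1, GAGE10 and PRAME were listed only in TE-1. The MAGEA, CTAG, SPRR, PSG and KRT6 genes have close paralogs that can share reads, so the member to which a tag was given is uncertain. The site named UGT1A6 here (71.0 and 84.0 TPM) is the shared last exon of 9 UGT1A genes, and the tags cannot be given to 1 of them.

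Homeobox and lineage factor genes were without a TE-1 PAC in 14 of 46, and 14 of 50 were listed only in TE-1. Beside SOX2 they were led by SOX15 (115 and 104 TPM), BARX2 (97.9 and 103 TPM), the luminal and squamous factor GATA3 (81.1 and 72.5 TPM) and the epithelial ETS factor EHF (29.6 and 38.9 TPM). HOX genes were without a TE-1 PAC in 2 of 8, and 6 of 14 were listed only in TE-1. WNT and TGF-beta signal genes were missing from TE-1 in 3 of 10, among them BMP5 at 15.5 and 17.3 TPM, and 3 of 12 were listed only in TE-1. Both protocadherin genes measured lacked a TE-1 PAC, with PCDH1 at 16.8 and 13.4 TPM. Of the interferon-induced genes, 3 of 14 lacked a TE-1 PAC, with IFITM10 at 11.04 and 12.1 TPM, and of the chemokine and interleukin genes 1 of 3. Listed only in TE-1 were 3 of 17 interferon-induced and 1 of 4 chemokine and interleukin genes.

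The largest families were near the background of 7.98%. Numbered zinc finger genes had no TE-1 PAC in 24 of 243 (9.88%), with ZNF75A at 31.1 and 29.8 TPM the highest. ZNF518B (18.6 and 21.9 TPM), ZNF365 (16.2 and 21.3 TPM) and ZNF329 (11.3 and 11.6 TPM) followed. Solute carrier genes lacked one in 12 of 152 (7.89%), with the glutamate transporter SLC1A3 at 28.5 and 28.4 TPM, SLC44A3 at 21.7 and 19.2 TPM and SLC37A2 at 11.9 and 14.4 TPM. The NRF2 and xenobiotic metabolism genes lacked one in 2 of 19 and the metallothionein genes in 1 of 4. None of the 10 S100 genes and none of the 9 antigen presentation genes measured in KYSE30 was missing from TE-1. None of FDX1, PAWR, BTF3L4, FAM98B, NUDT21, CPSF6, AARS1, HDAC2 and LDHA held a member.

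Some members lay in genes transcribed in most cell types. Chosen after their values were seen, SMPD4, a sphingomyelinase, had 75.6 and 75.5 TPM, MNAT1, a subunit of the CDK-activating kinase, had 62.9 and 64.1 TPM, and ADD3, an adducin of the membrane skeleton, had 60.5 and 61.6 TPM. Each had 1 PAC in its 3′ UTR with AATAAA in the 50 nt before the dominant site, and none had a PAC in TE-1, also within 5 kb past the gene end. GAPDH had 1466 and 1474 TPM in KYSE30 and 1668 and 1593 TPM in TE-1, and EEF1A1 had 6177 and 6097 against 4274 and 3876 TPM.

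The 344 members in genes with other TE-1 PACs were fainter, with a median of 4.71 TPM in the control. Of these, 234 were in a 3′ UTR, 73 in an intron, 36 in a noncoding exon and 1 in a coding exon. The member held a median of 14.04% of the TPM of its gene in KYSE30, and more than 50% in 36 cases. Gene levels were lower in TE-1 for 311 of the 344, with genes not listed in the TE-1 control counted as lower. The median log2 ratio of TE-1 over KYSE30 was -1.33 over the 326 members with a value. Over the 8621 genes above 3 TPM in KYSE30 and listed in the TE-1 control it was -0.06. Of these genes, 4576 (53.1%) were lower in TE-1. The 311 counts members and leaves in unlisted genes, so it is not like for like with this share. The KYSE30 gene levels include the member itself. To give the level a member would have at an equal share, its share in the KYSE30 control was multiplied by the level of its gene in the TE-1 control. This expected level was above 3 TPM for 107 members in 105 genes and at or below it for 237. It was above 10 TPM for 6 members. The share rests on the KYSE30 values by which members were chosen. PACs listed in only 1 TE-1 library had a median of 3.37 and a 95th percentile of 5.31 TPM. For members expected up to this 95th percentile, the expected level therefore cannot separate a change of site from a lower gene level. Of the 107 members expected above 3 TPM, the gene was lower in TE-1 for 74. The gene CCT3 had 387 TPM in the TE-1 control and 330 TPM in the KYSE30 control, and PPL had 66.5 and 211 TPM. What lies behind the missing sites was not tested. Pairs where both the member and the strongest TE-1 PAC were in a 3′ UTR numbered 214. The member was upstream in 92 and downstream in 122, at a median distance of 2342 nt, and in the 60 pairs expected above 3 TPM it was upstream in 20 and downstream in 40.

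Of the 6 genes whose sites are printed above, 3 had no site listed in both l-lactate libraries. There the KYSE30 member was the gene's whole level and TE-1 listed another site. CEP162, a centrosomal protein gene, had 5.79 and 7.11 TPM at its member and none at the site 660 nt further downstream, which TE-1 listed at 3.85 and 4.96 TPM. ERI2, an exonuclease gene, had 8.48 and 7.11 TPM at its member, 70.0% (59.9 to 78.5%) and 100% of the gene, while TE-1 listed 21.1 and 20.5 TPM at a 3′ UTR site 16150 nt upstream that KYSE30 did not list. USP45, a deubiquitinase gene, had 3.10 and 4.04 TPM at its 3′ UTR member, against 4.23 and 4.84 TPM at an intronic site in TE-1. The levels of CEP162 and USP45 lie within the range where a PAC can be missing from 1 library. PACs listed in only 1 of the KYSE30 libraries had a 95th percentile of 5.02 TPM. Of these 1201 PACs, 2 were above 10 TPM, and the highest had 23.6 TPM. The TE-1 site of ERI2 lay above that 95th percentile and under that highest value. TSPAN10 (4.58 and 4.18 TPM), BOD1L1 (3.77 and 3.90 TPM) and PMEL (4.58 and 5.16 TPM) had all their KYSE30 tags in the member too. In TE-1, BOD1L1 and PMEL were listed only in the control, at 3.27 and 3.18 TPM.

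CCT3, a chaperonin subunit and the member with the largest expected level, had 26.4 and 32.8 TPM at an intronic PAC, 8.01% (6.999 to 9.15%) and 9.41% (8.32 to 10.6%) of the gene, which would be 31.0 TPM in the TE-1 control. PPL, the cornified envelope protein periplakin, had 60.7 and 61.6 TPM in an intron, 28.8% (26.6 to 31.1%) of the gene, against an expected 19.1 TPM. MTHFD1L, a mitochondrial folate enzyme, had 5.12 and 5.58 TPM in an intron and an expected 26.7 TPM, with A-rich genomic sequence past the site. TPGS2 had an intronic member expected at 15.5 TPM. UROS, a heme synthesis enzyme, had 8.62 and 8.92 TPM at a 3′ UTR site 2942 nt upstream of its main one, 36.8% (29.97 to 44.2%) of the gene, and an expected 10.7 TPM. ERI2, whose sites are printed above, was expected at 14.7 TPM. The other members of the leading 15 were CNOT7, TUBB6, SERP1, OLA1, SAR1A, NUTM2B-AS1, AP1S3, SEPTIN7 and PCBD2, expected at 7.73 to 8.89 TPM. PACs on the sense strand of an intron cannot be tied to the transcript of the host gene rather than to an unannotated transcript inside it.

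In AP1S3 and PCBD2 the intronic member was the main site in KYSE30. AP1S3, a subunit of the clathrin adaptor AP-1, had 52.3 and 66.9 TPM there, 74.6% (70.7 to 78.2%) and 76.9% (73.5 to 80.1%) of the gene. Its 3′ UTR site, 50841 nt upstream, had 7.68 and 8.08 TPM in KYSE30 and 11.1 and 15.8 TPM in TE-1. PCBD2 had 44.8 and 60.1 TPM in an intron, 77.3% (73.1 to 81.0%) and 86.2% (82.9 to 88.9%) of the gene, and its strongest TE-1 site had 5.29 and 3.78 TPM. The member of PCBD2 lies within MTND4P12, a pseudogene of a mitochondrial gene, on the opposite strand, which held a member of its own (4.31 and 6.97 TPM), and whether tags there were placed correctly was not tested. Outside the naming rule and chosen after their values were seen, DST, which encodes the plakin dystonin, had an intronic member at 65.5 and 63.3 TPM, 15.9% of the gene, and the growth factor receptor gene EGFR had one at 34.7 and 32.5 TPM, 3.86% of the gene. They were expected at 5.11 and 4.87 TPM in TE-1.

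The members in no annotated gene had a median of 5.52 TPM in the control, and 113 of the 211 lay within 5 kb past a gene end. Of these, 51 lay at most 24 nt past it, and for 45 of the 51 the gene had no PAC in TE-1. They included TP63, the plexin gene PLXNB2 (25.05 and 23.0 TPM), the keratin gene KRT23 (36.6 and 26.3 TPM) and the ubiquitin ligase gene TRAF2 (17.2 and 16.3 TPM). The other 98 members were in no gene, and within 5 kb past no gene end, of the same strand. Genes on the opposite strand were not considered. The highest of the 98 was at chr12:53106632 on the minus strand with 587 TPM in the control and 563 with l-lactate.

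The next comparison asked whether the levels of these sites differed between KYSE30 cells with and without l-lactate. The rule used this contrast only through the minimum in both libraries. The median log2 ratio of l-lactate over control was -0.01 over members (quartiles -0.27 and 0.22) and 0.00 over all 13071 PACs. At least 1.5-fold higher were 89 members (6.34%), against 3.38% of all PACs above 3 TPM, and at least 1.5-fold lower were 98 (6.98%), against 3.54%. Above 10 TPM in both libraries, 11 of 333 members were higher (3.30%, against 0.866% of 8198 PACs) and 12 were lower (3.60%, against 0.878%). Between 10 and 30 TPM, 7.69% of members (4.92 to 11.8%) and 2.75% of other PACs (2.26 to 3.35%) had moved 1.5-fold either way. Between 30 and 100 TPM these shares were 6.58% (2.84 to 14.5%) and 0.65% (0.41 to 1.01%). Between 5 and 10 TPM they were 12.04% and 11.5%, and between 3 and 5 TPM they were 17.1% (14.5 to 20.1%) and 22.1% (20.1 to 24.2%). Above 100 TPM none of 23 members moved, with a Wilson interval up to 14.3%. In TE-1, the PACs listed only there gave 4.02% against 3.83% between 10 and 30 TPM and 1.20% against 0.80% between 30 and 100 TPM. Above 100 TPM the shares were 3.70% of 27 against 0.389%, and over all PACs above 10 TPM they were 3.29% of 334 (1.85 to 5.80%) against 2.08% (1.79 to 2.42%).

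Of the members above 10 TPM, the largest rise was in KRT6A, a keratin of activated keratinocytes, from 20.3 TPM (17.2 to 23.9) to 40.4 TPM (35.9 to 45.3), a log2 ratio of 0.99 (0.70 to 1.28). PADI2, a deiminase beside PADI3 on chromosome 1, went from 32.6 to 62.0 TPM (log2 ratio 0.93, 0.70 to 1.16). PHLDA1 went from 14.7 to 25.8 TPM at 1 of its sites, the neural adhesion gene CNTN1 from 28.3 to 48.8 TPM, and the calcium-binding protein gene CALB2 from 91.6 TPM (84.8 to 98.7) to 154 TPM (145 to 163). The largest fall was in MUC20, a mucin, from 24.6 to 12.4 TPM (log2 ratio -0.99, -1.37 to -0.62). PSG8 went from 22.0 to 11.7 TPM, and PSG5, another pregnancy-specific glycoprotein gene, went from 19.0 to 11.4 TPM at a site in a coding exon. Its 3′ UTR site was at 43.0 and 33.3 TPM. The urothelial gene UPK2 went from 28.1 to 16.3 TPM, and VGLL1, a TEAD cofactor, from 120 TPM (112 to 128) to 73.2 TPM (67.0 to 79.7). None of the members above 10 TPM moved 2-fold. With 1 library of each kind, how far these values would vary between cultures was not measured.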

How the data were processed

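PAS-seq was done on 1 library each of KYSE30 and TE-1 cells, with l-lactate or PBS. Per the study's methods, reads were trimmed with FASTX-Toolkit, aligned to GRCh38 with HISAT2 and clustered with CAGEr. Sites with low TPM and clusters of a single site with low TPM were removed, and neighbouring PACs at most 500 nt apart that were abundant in all samples were joined. The submitters' notes name the build GRCh38.p14. The deposited TPM are RPM values by the authors (tags relative to library depth, linear, with no length correction), listed per PAC above these limits, so a missing PAC is not a measured 0. All values were whole multiples of 1 tag, which gave the depths. The members and gene lists were chosen with earlier results of these data known.

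PACs were placed by the dominant site on GENCODE 44, in the order 3′ UTR, other exon and gene body, on the same strand. Gene levels were sums of TPM over PACs inside the gene. Shares have Wilson intervals, TPM exact Poisson intervals and ratios exact binomial ones (95%), which cover counting error only. Reads carried no stated molecular identifiers. No test between groups was run for the main results, since each group held 1 library and the members were chosen by the contrast between the lines. An exact binomial test on the tags of the KYSE30 libraries was run as an alternative for the 1.5-fold calls. It covers counting error only, and its counts are given with the alternatives. Named genes were the 20 genes with the highest lower KYSE30 level and those of 18 lists with at least 10 TPM. Among members in genes with other TE-1 PACs, the 15 with the highest expected level and 5 with the highest share were named. The 5 largest rises and falls with l-lactate above 10 TPM were named too. Some items that the rule names are not reported here. Other genes were chosen after their values were seen. The computation of ratios was run on simulated tags with large known changes and counting error only. That simulation cannot show how ratios vary between cultures. SciPy 1.17.1 and NumPy 2.4.6 gave the intervals, pandas 2.3.3 under Python 3.11.15 the tables, and matplotlib 3.10.9 the plots. Alternatives changed the minimum TPM, the TE-1 condition, the gene placement, the motif window and the fold.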

Additional observations from a re-analysis of the deposited data

How the results depend on the processing

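Each group held 1 library, so no library could be left out of a group. No paired analysis was possible because the main results come from no test. Of 41 alternative values, 24 stayed the same and 17 moved. The same meant within the interval of the main share, within 1.5 times a main count, or within 0.246 of the main median log2 ratio. A reversal was not looked for. Leaving out PACs within 500 nt of a TE-1 PAC removed no member, since the nearest lay 508 nt away. Those alternatives could not move. The number of members was 715 with TPM above 5 in both KYSE30 libraries and 333 above 10. The share of members in genes with no PAC in TE-1 was 65.6% when PACs up to 5 kb past gene ends were included, and at minimum TPM of 5 and 10 it was 71.7% and 79.3%. At minimum TPM of 1, 5 and 10, 58.6%, 69.2% and 73.9% of members lay in a 3′ UTR. AAUAAA was found in 71.8% of members above 10 TPM, AAUAAA or AUUAAA in 83.3% of all members, and the share with UGUA was 32.0% in 50 nt. With l-lactate, 12 of 1405 members were higher and 9 lower by 2-fold, against 52 and 41 of all 13071 PACs above 3 TPM. By 1.5-fold and also passing an exact binomial test on tags between these libraries, 33 members were higher and 28 lower. Over all 13071 PACs these counts were 182 and 173. With 1 library of each kind, this test covers counting error only. The members in genes with other TE-1 PACs expected above 1 TPM numbered 257, and above 10 TPM 6. The alternatives that included 24 nt past gene ends, and the expected levels with 5 kb past gene ends, were chosen after seeing the data. The causes of these differences were not tested.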

Other observations

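Genes with no PAC in TE-1 also lay side by side. Among the 9457 genes with a PAC above 3 TPM in both KYSE30 libraries, ordered along each chromosome, 576 of the genes without a TE-1 PAC stood alone, and there were 58 runs of 2, 14 of 3, 4 of 4 and 1 of 5 neighbouring genes. IVL, SPRR1A, SPRR3 and SPRR1B, genes of the epidermal differentiation complex, formed a run within 0.123 Mb of chromosome 1. AGR2, AGR3 and AHR, the aryl hydrocarbon receptor gene (10.5 and 9.76 TPM), were neighbours on chromosome 7 together with an unnamed lncRNA gene. Further runs were PADI2, PADI1 and PADI3 on chromosome 1, KRTAP2-3, KRT13 and KRT15 on chromosome 17, PSG8, PSG1 and PSG5 on chromosome 19, and EREG and AREG, the genes of the EGFR ligands epiregulin and amphiregulin, on chromosome 4. These runs were read from the data and have no test. Members were 4.50% of the KYSE30 PACs on chromosome 21 (5 of 111) and 16.7% on chromosome 18 (35 of 209), the extremes over the autosomes and X.

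Past the end of the processed pseudogene TPI1P1, a member had 356 and 332 TPM in KYSE30, and the parent gene TPI1, a glycolytic enzyme, was listed in both lines at 514 and 511 TPM in KYSE30 and 859 and 793 TPM in TE-1. A second such member lay past the pseudogene PRR13P5, at 78.8 and 77.8 TPM, with A-rich sequence past its site. Whether reads of a parent gene were placed there was not tested.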
